A study of Mus musculus with 10 samples.

Results

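Gene expression in the lactating mammary gland of QSi5 and CBA mice was examined for 10 genes of the mTOR kinase pathway and of cap-dependent translation initiation, namely Mtor, Rptor, Rheb, Rps6kb1, Eif4e, Eif4e2, Eif4ebp1, Eif4ebp2, Eif4g1 and Eif4g2. A probeset was taken for one of these genes where the platform annotation gave it exactly 1 symbol and that symbol was the gene's, a rule that used no measured value. The rule found 22 probesets of 7 genes among the 20380 probesets with 1 symbol. Rptor, Rps6kb1 and Eif4g1 are not analysed here. Inguinal glands of 5 dams per strain were taken at day 9 of a first lactation, and each gland was measured on 1 Affymetrix array. The series record adds that the dams of both strains were force weaned, whereas the methods name only the day of lactation. Both strains are inbred. CBA (CBA/CaH) was not bred for reproduction, whereas QSi5 descends from Quackenbush-Swiss stock and was bred for the size and frequency of its litters. The strains were the only groups, no drug or other agent is named, and females of both strains were mated at the same age. In each strain 3 mice were on the MOE430 2.0 chip (CBA 1, 4 and 5, QSi5 3, 4 and 5) and 2 on the MOE430A 2.0 chip (CBA 2 and 3, QSi5 1 and 2), where the number names a mouse and carries no order. These are called the full chip and the A chip below.

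mTOR is a protein kinase that, as part of the complex mTORC1 with its partner raptor (Rptor), couples the supply of amino acids and the signal of insulin-like hormones to protein synthesis. Rheb is the small GTPase that switches mTORC1 on at the lysosome. Active mTORC1 phosphorylates S6 kinase 1 (Rps6kb1) and the 4E-BP repressors (Eif4ebp1, Eif4ebp2). Unphosphorylated 4E-BP binds eIF4E (Eif4e), which holds the cap at the start of a messenger RNA, and keeps it from the scaffold eIF4G (Eif4g1) that brings in the ribosome. eIF4E2, also called 4EHP, binds the cap without recruiting eIF4G and takes part in repression of selected messages. eIF4G2, also called DAP5, resembles eIF4G but lacks its eIF4E-binding part. The secretory epithelium of the lactating gland makes milk protein at a high rate, and prolactin, insulin and amino acid supply are known to act on translation there through this pathway. Most of that control acts on phosphorylation, which an RNA array does not measure.

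The promoters of 4 of these genes are shown, chosen by how the measured genes correlated from mouse to mouse. Of the 21 pairs, Mtor with Eif4e2 and Rheb with Eif4e had the highest Pearson r (0.88 and 0.81). Only the first passed after adjustment (exact permutation, adjusted p = 0.0277 and 0.0890). By rho Rheb with Eif4e2 (0.70) ranked above Rheb with Eif4e (0.65). Each sequence is the 250 bases before the annotated start, 5' to 3' on the gene's strand, from RefSeq on GRCm38.p6. Where a gene has several annotated starts, the one nearest its 3' end was taken. Eif4e has 2 starts that lie 1077 bases apart and Eif4e2 has 3 within 28 bases. Of the 10 genes, 8 matched that table, all but Eif4ebp1 and Eif4g2. Capitals mark CACGTG (an E-box), CCGGAAG (a core that ETS factors bind) and CCAAT, each searched on both strands, so that ATTGG is CCAAT read on the other strand. The windows are chr4:148448332-148448581 on the plus strand for Mtor, chr1:87213689-87213938 on the plus strand for Eif4e2, chr5:24842362-24842611 on the minus strand for Rheb and chr3:138527018-138527267 on the plus strand for Eif4e.
Mtor: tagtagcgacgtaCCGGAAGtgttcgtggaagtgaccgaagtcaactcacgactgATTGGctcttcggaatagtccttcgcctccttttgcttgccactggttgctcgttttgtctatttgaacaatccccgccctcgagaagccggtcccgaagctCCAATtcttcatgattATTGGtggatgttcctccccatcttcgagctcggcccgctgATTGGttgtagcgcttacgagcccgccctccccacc
Eif4e2: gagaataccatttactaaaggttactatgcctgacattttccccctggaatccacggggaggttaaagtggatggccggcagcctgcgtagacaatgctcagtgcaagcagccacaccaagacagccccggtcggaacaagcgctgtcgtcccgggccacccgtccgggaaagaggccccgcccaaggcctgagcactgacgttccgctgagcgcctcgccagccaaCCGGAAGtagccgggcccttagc
Rheb: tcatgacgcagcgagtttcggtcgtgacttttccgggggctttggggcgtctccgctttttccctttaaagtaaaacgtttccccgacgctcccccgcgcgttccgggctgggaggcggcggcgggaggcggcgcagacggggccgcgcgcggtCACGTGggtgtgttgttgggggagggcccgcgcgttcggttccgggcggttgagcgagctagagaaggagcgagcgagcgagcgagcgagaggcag
Eif4e: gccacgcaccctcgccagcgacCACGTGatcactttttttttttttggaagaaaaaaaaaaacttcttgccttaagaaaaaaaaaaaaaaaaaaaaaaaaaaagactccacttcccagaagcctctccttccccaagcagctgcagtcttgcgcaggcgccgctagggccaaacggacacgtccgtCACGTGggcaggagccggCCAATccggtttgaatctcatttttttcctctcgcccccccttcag
The windows of Mtor and Eif4e2 both held CCGGAAG, whose first base lay 237 bases before the start of Mtor and 23 before that of Eif4e2. Those of Rheb and Eif4e both held CACGTG, at 96 bases for Rheb and at 228 and 64 for Eif4e. Mtor held CCAAT on either strand at 195, 93, 77 and 36 bases, and Eif4e at 46. Among the other windows, that of Eif4ebp2 held CCGGAAG on the minus strand and that of Eif4g1 held CACGTG. Of all 32851 windows of this length, 6.02% held CACGTG, 6.91% CCGGAAG and 33.8% CCAAT. The pairs next in r, Eif4e with Eif4e2 and Rheb with Eif4e2, shared none of these motifs. A match is a description of the letters only.

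Levels are RMA log2 intensities, on which 1 unit is a doubling of signal, and differences are QSi5 minus CBA. Signals of different probesets are not comparable as amounts of RNA, so each probeset was compared only with itself between mice. Of the 22 probesets, 17 had a mean above 20 on the unlogged scale (4.32 on the log2 scale) in at least 1 strain and were tested with limma. The other 5 (1 each of Eif4e, Eif4ebp1 and Eif4g2, and 2 of Eif4ebp2) lay between 2.67 and 4.35 over all mice and have no test. The milk protein genes that define secretory epithelium had high signals in all 10 glands, at 13.76 to 13.97 for Csn2 (beta-casein) and 14.12 to 14.26 for Wap (whey acidic protein). Array medians lay between 4.21 and 4.30, and every pair of arrays correlated at 0.958 to 0.992 over probesets, which do not count as replicates. The glands are bulk tissue, in which fewer cells of a type and less RNA per cell cannot be told apart.

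The arrays differed in a measure of how far the labelled RNA reached towards the 5' end of messages, which bears on several of the genes below. This measure is the 3' minus the 5' control probeset of beta-actin, and a high value means that signal came mostly from 3' ends. It was 2.01, 3.23, 3.998, 1.63 and 3.00 in CBA 1 to 5 and 2.00, 2.56, 1.98, 2.09 and 2.24 in QSi5 1 to 5. CBA 3, CBA 2 and CBA 5 were the highest of the 10 arrays, while the lowest was also a CBA array. The strain difference of this measure was -0.60 (exact permutation test over all splits of the 10 arrays into 5 and 5, two-sided, p = 0.206). The same difference for Gapdh followed it with r = 0.98 within strains.

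Under the limma fit with Benjamini-Hochberg (BH) adjustment, none of the 17 tested probesets had an adjusted p under 0.05, the level at which a difference is called, against 336 of 11412 tested probesets (2.94%). At an unadjusted p under 0.01, 2 of 17 passed, which were 1 probeset each of Eif4e2 and Eif4ebp1, against 6.49% of all. The 5 CBA and 5 QSi5 values did not overlap for 1 of 17, the same Eif4e2 probeset, against 5.14% of all. The difference was positive for 8 probesets and negative for 9, with a median of -0.0058 beside 0.0013 over all tested probesets. Its median size was 0.15 beside 0.14 over all. The arms of the 95% intervals were 0.25 to 0.47 long, so differences smaller than these could not be resolved with 5 mice per strain. These intervals are not adjusted for the number of probesets, and a call needed more. The 2 probesets whose intervals lay to one side of 0 were not called.

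**Figure D1:**
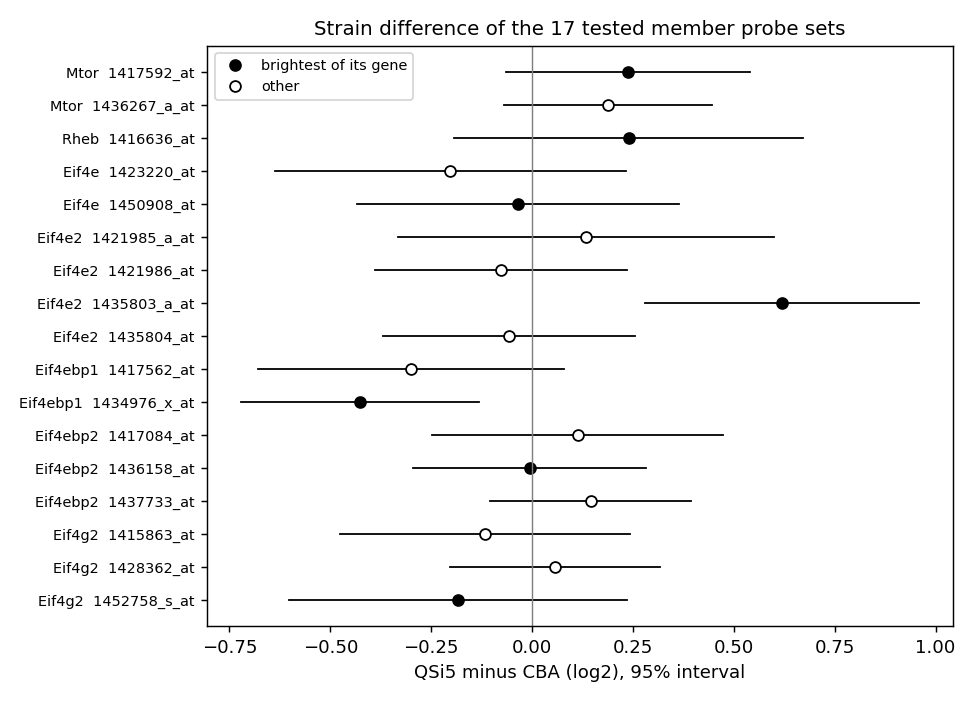
Strain difference (QSi5 minus CBA, log2, horizontal axis) of each of the 17 tested probesets with its 95% interval from limma (n = 5 mice per strain). Filled points are the brightest probeset of a gene. Only the intervals of Eif4e2 1435803_a_at (0.62) and Eif4ebp1 1434976_x_at (-0.43) lie to one side of 0.

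Mtor, the kinase itself, was measured by probesets 1417592_at and 1436267_a_at. On 1417592_at its level was 5.72, 5.43, 5.69, 5.86 and 5.90 in CBA 1 to 5 and 6.07, 5.81, 6.02, 5.61 and 6.28 in QSi5 1 to 5. The highest 3 mice were QSi5 and the lowest was CBA 2, but QSi5 4 lay below 4 of the CBA mice, so the strains overlapped. The means were 5.72 ± 0.18 (SD, n = 5) in CBA and 5.96 ± 0.26 (SD, n = 5) in QSi5, a difference of 0.24 (SE 0.14, 95% interval -0.064 to 0.54, limma BH-adjusted p = 0.471). The dimmer 1436267_a_at gave 0.19 (SE 0.12, limma BH-adjusted p = 0.508). Its values ran from 4.73 to 5.05 in CBA and from 4.97 to 5.48 in QSi5, with QSi5 2 highest. Both Mtor probesets had larger differences on the A chip (0.38 and 0.35) than on the full chip (0.14 and 0.081), and the difference between chip types was not tested.

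Rheb, the activator of mTORC1, had 1 probeset, 1416636_at. Its level was 9.29, 9.63, 9.29, 10.01 and 9.67 in CBA 1 to 5 and 10.23, 9.23, 9.96, 9.62 and 10.06 in QSi5 1 to 5. The highest and the lowest value were both those of QSi5 mice on the A chip, and the strains overlapped over most of their range. The means were 9.58 ± 0.30 and 9.82 ± 0.40 (SD, n = 5), a difference of 0.24 (SE 0.20, 95% interval -0.19 to 0.67, limma BH-adjusted p = 0.632). Its SD within strains, 0.35, stood at the 83rd percentile of all tested probesets, whose median SD was 0.22.

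Eif4e, the cap-binding protein that 4E-BPs hold back, had a strain difference close to 0. On its brightest probeset, 1450908_at, it was 6.87, 6.48, 6.29, 7.13 and 6.80 in CBA 1 to 5 and 6.99, 6.19, 6.86, 6.57 and 6.79 in QSi5 1 to 5. Both strains covered almost the same range, and the lowest 3 values were all from A-chip arrays. The difference was -0.034 (SE 0.18, 95% interval -0.43 to 0.37, limma BH-adjusted p = 0.955), with 0.21 on the A chip and -0.19 on the others. The dim 1423220_at, at 4.32 to 5.26, gave -0.20 (SE 0.20, limma BH-adjusted p = 0.697).

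Eif4e2, the cap-binding relative of Eif4e that takes part in repression, was the gene with the largest difference among the 17 probesets. On 1435803_a_at its level was 6.95, 6.65, 6.69, 7.15 and 7.28 in CBA 1 to 5 and 7.79, 7.32, 7.54, 7.33 and 7.84 in QSi5 1 to 5. Every QSi5 mouse lay above every CBA mouse, although the gap between CBA 5 and QSi5 2 was narrow. The means were 6.94 ± 0.27 and 7.56 ± 0.25 (SD, n = 5), a difference of 0.62 (SE 0.16, 95% interval 0.28 to 0.96), or 1.54-fold. Its unadjusted p was 0.00182 and its limma BH-adjusted p 0.0571, just outside the threshold. With chip type as a block the difference was called (SE 0.14, limma BH-adjusted p = 0.0388), and it was 0.44 on the full chip and 0.88 on the A chip. Without CBA 5 it was 0.70 and was called as well (limma BH-adjusted p = 0.0382). Leaving out a mouse gave 0.55 to 0.70, and 5 of 23 alternatives called it.

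The other 3 probesets of Eif4e2 gave smaller differences, none of them called. On 1421985_a_at the level was 7.33, 6.63, 6.53, 7.67 and 7.10 in CBA 1 to 5 and 7.29, 6.77, 7.39, 7.10 and 7.38 in QSi5 1 to 5. The QSi5 values lay inside the CBA range, and the difference was 0.13 (SE 0.21, 95% interval -0.33 to 0.60, limma BH-adjusted p = 0.825). The dim 1435804_at and 1421986_at, between 4.21 and 5.04 over all mice, gave -0.057 (SE 0.14) and -0.078 (SE 0.14). Set against these probesets array by array, the strain difference of 1435803_a_at was larger by 0.49 than that of 1421985_a_at (exact permutation test, p = 0.0238), by 0.68 than that of 1435804_at (p = 0.0238, exact) and by 0.70 than that of 1421986_at (p = 0.0159, exact). After BH adjustment over the 10 pairs of probesets of one gene that were compared, each of these exact permutation tests had an adjusted p of 0.0794 and none of the 10 passed. Which transcripts of Eif4e2 each probeset detects was not tested.

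**Figure D2:**
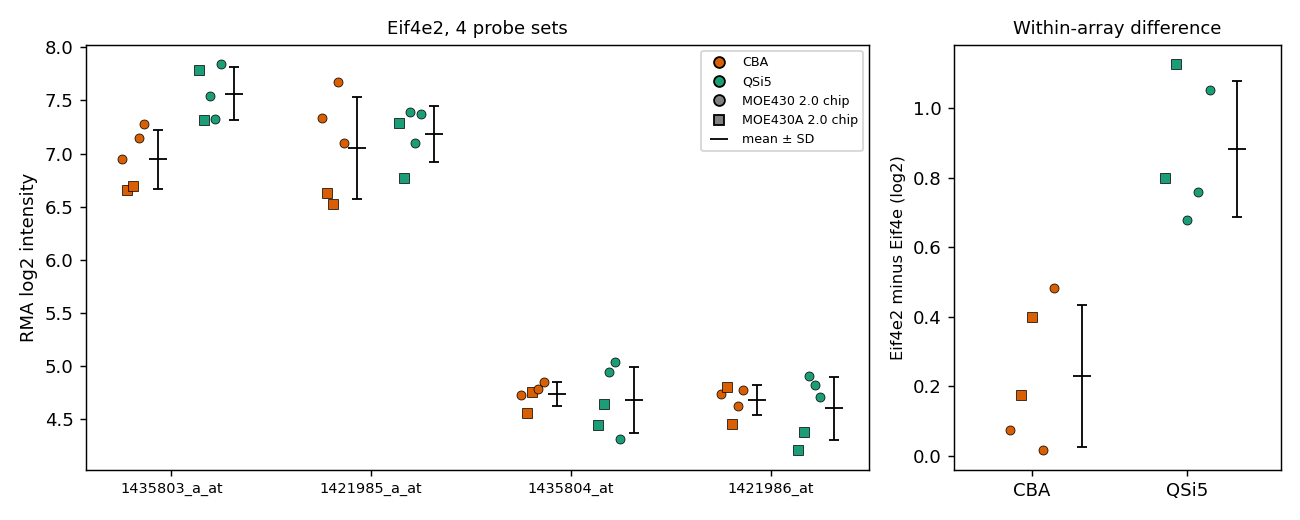
Left, RMA log2 intensity (vertical axis) of the 4 probesets of Eif4e2 in each mouse by strain and chip type, with mean and SD (n = 5 mice per strain). Right, the log2 difference within each array between Eif4e2 (1435803_a_at) and Eif4e (1450908_at). The strains separate on 1435803_a_at and on the within-array difference (0.016 to 0.48 in CBA, 0.68 to 1.13 in QSi5), and overlap on the other 3 probesets.

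The within-array difference between 2 probesets cancels only what shifts both by the same log2 amount on an array. It was compared between strains for each pair of partners that could be measured. Within strains the beta-actin measure had r = -0.81 with Eif4e 1450908_at, -0.47 with Eif4e2 1435803_a_at and -0.43 with Eif4ebp1 1434976_x_at. What goes with that measure need therefore not cancel. The within-array difference gives no stoichiometry. Eif4e2 (1435803_a_at) minus Eif4e (1450908_at) was 0.23 ± 0.20 (SD, n = 5) in CBA and 0.88 ± 0.20 in QSi5, and the ranges, 0.016 to 0.48 and 0.68 to 1.13, did not overlap. The strain difference of 0.65 (1.57-fold) had an exact permutation p of 0.00794, the smallest that the splits can give, and a BH-adjusted p of 0.0238 over the 3 ratios computed. It was 0.64 on the full chip and 0.68 on the A chip, and with splits made within chip type its adjusted p was 0.05 (exact permutation). That is the smallest adjusted p those splits can give a ratio unless another ratio also has a small p. It rested on the choice of probeset, since it was 0.17 with 1421985_a_at (exact permutation, adjusted p = 0.179) and 0.27 with the mean of all tested probesets of each gene (exact permutation, adjusted p = 0.357). The brightest probeset was picked over the arrays of both strains. On strain means 1435803_a_at was brighter than 1421985_a_at in QSi5 (7.56 against 7.19) but not in CBA (6.94 against 7.05). The choice thus drew on the strain difference itself, and the permutation p takes no account of that.

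Eif4ebp1, which encodes the repressor 4E-BP1, had lower mean values in QSi5 glands on both tested probesets, and neither was called. On 1434976_x_at its level was 9.28, 9.36, 8.65, 9.08 and 8.93 in CBA 1 to 5 and 8.58, 8.74, 8.61, 8.49 and 8.75 in QSi5 1 to 5. CBA 1, 2, 4 and 5 lay above every QSi5 mouse, and CBA 3 lay within the QSi5 range. The means were 9.06 ± 0.28 and 8.63 ± 0.11 (SD, n = 5), and the difference was -0.43 (SE 0.14, 95% interval -0.72 to -0.13), 1.34-fold lower in QSi5. Its unadjusted p was 0.00843 and its limma BH-adjusted p 0.140. Leaving out a mouse gave -0.53 to -0.35. Without CBA 3, the array with the highest actin measure, it was -0.53 and was called (limma BH-adjusted p = 0.0343). That was the only 1 of 22 alternatives that called it. The suffix _x marks a probeset with probes that may also match other transcripts.

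On 1417562_at the level of Eif4ebp1 was 8.87, 8.19, 7.81, 8.70 and 8.48 in CBA 1 to 5 and 8.09, 8.01, 8.07, 8.20 and 8.19 in QSi5 1 to 5. The QSi5 mice lay close together (SD 0.080) and the CBA mice far apart (SD 0.42), with CBA 3 lowest of all. The difference was -0.30 (SE 0.17, 95% interval -0.68 to 0.078, limma BH-adjusted p = 0.467), with -0.53 on the full chip and 0.048 on the A chip. With the actin measure as a term, a fit chosen after the data were seen, the difference was -0.54 (SE 0.11, limma BH-adjusted p = 0.0340). That was the only 1 of 23 alternatives that called it. In the fit with the actin term 1434976_x_at gave -0.50 (limma BH-adjusted p = 0.121) and Eif4e2 1435803_a_at gave 0.51 (limma BH-adjusted p = 0.169). That fit called 260 of all tested probesets (2.28%). Eif4ebp1 minus Eif4e within arrays was 2.35 ± 0.35 in CBA and 1.95 ± 0.36 in QSi5 (SD, n = 5), a difference of -0.39 (exact permutation p = 0.119, BH-adjusted p = 0.179). Leaving out a mouse gave -0.54 to -0.26. It passed in 1 of 19 alternatives, without QSi5 2 (-0.54, exact permutation, BH-adjusted p = 0.0357).

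Eif4ebp2, another 4E-BP, also had a difference close to 0. On its brightest probeset, 1436158_at, it was 7.27, 7.23, 6.91, 6.71 and 6.85 in CBA 1 to 5 and 6.95, 7.20, 6.88, 6.80 and 7.10 in QSi5 1 to 5. All QSi5 values fell inside the CBA range, and the difference was -0.0058 (SE 0.13, 95% interval -0.29 to 0.28, limma BH-adjusted p = 0.989). The probesets 1417084_at and 1437733_at gave 0.11 (SE 0.17) and 0.15 (SE 0.11), with limma BH-adjusted p of 0.806 and 0.613. Eif4ebp2 minus Eif4e differed by 0.028 between the strains (exact permutation p = 0.944).

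Eif4g2, the scaffold-like DAP5, overlapped between the strains on each of its 3 tested probesets. On the brightest, 1452758_s_at, its level was 10.24, 10.91, 10.51, 9.85 and 10.21 in CBA 1 to 5 and 10.55, 10.22, 9.90, 9.89 and 10.25 in QSi5 1 to 5. The 2 highest CBA mice and the highest QSi5 mouse were all on the A chip. The strain difference was -0.18 (SE 0.19, 95% interval -0.60 to 0.24, limma BH-adjusted p = 0.714), while the A-chip arrays lay 0.49 above the full-chip arrays with strain in the fit (SE 0.14, limma BH-adjusted p = 0.134). The probesets 1415863_at and 1428362_at gave -0.12 (SE 0.16) and 0.057 (SE 0.12). By chip type none of the 17 probesets was called, against 0.526% of all tested, and 4 had an unadjusted limma p under 0.05, against 17.2% of all tested.

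**Figure D3:**
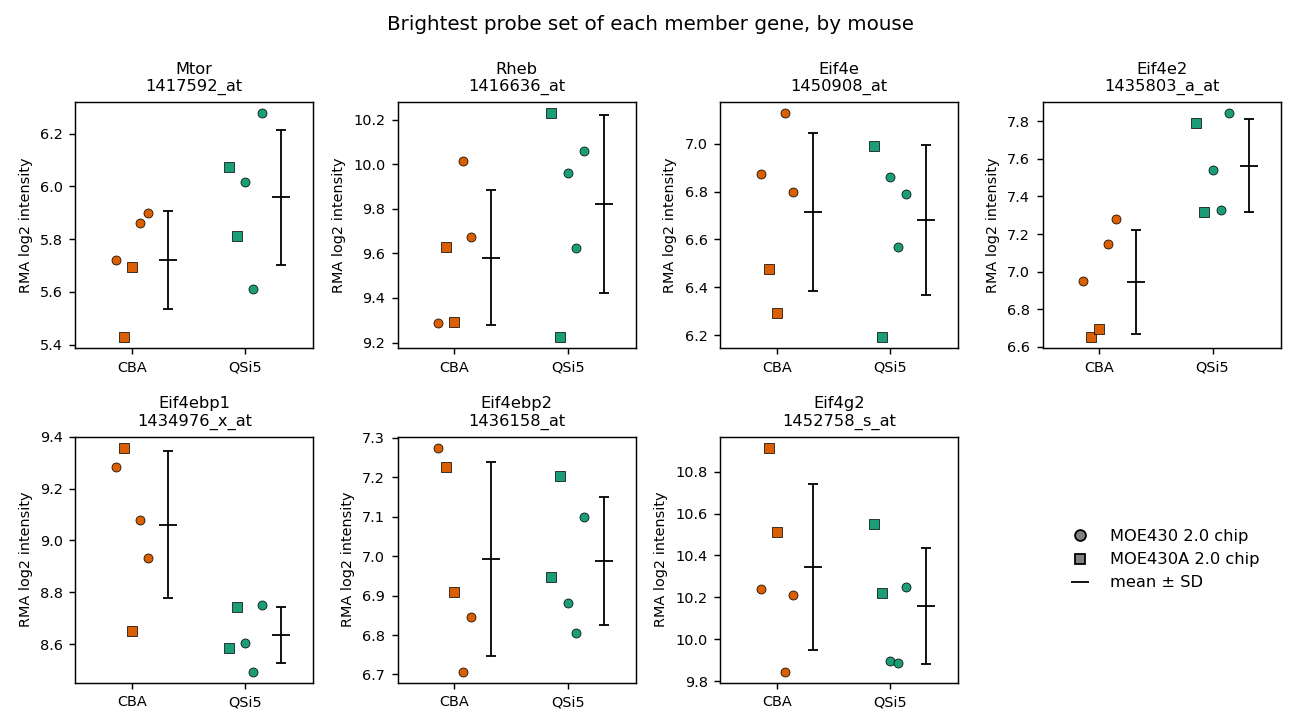
RMA log2 intensity (vertical axis, own scale for each panel, not starting at 0) of the brightest probeset of each of the 7 measured genes, 1 point per mouse, with mean and SD (n = 5 mice per strain). Circles are full-chip (MOE430 2.0) and squares A-chip (MOE430A 2.0) arrays. QSi5 and CBA separate for Eif4e2 (means 7.56 and 6.94) and overlap for the other 6 genes.

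The genes were next compared with each other over mice, after the strain mean of each was subtracted, so that strain differences play no part. For the 21 pairs of the 7 brightest probesets, p was taken from all 14400 exact permutations within strains and BH-adjusted over the 21 pairs. Mtor and Eif4e2 varied together most closely. In both strains the mouse with the highest Mtor beside its strain mean was also the highest for Eif4e2, with r = 0.88 (exact permutation p = 0.00132, adjusted p = 0.0277) and rho = 0.95 (exact permutation p = 0.00125, adjusted p = 0.0262) over 10 arrays. It was 0.81 without the 2 mice farthest from the median of Mtor, 0.93 on the 6 full-chip arrays and 0.89 after the actin measure was taken out. The A chip had too few arrays for a value of its own.

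Rheb and Eif4e followed at r = 0.81 (exact permutation p = 0.00847, adjusted p = 0.0890; rho = 0.65, exact permutation p = 0.0761), and 0.66 without the 2 mice farthest from the median of Rheb. Eif4e and Eif4e2 had r = 0.79 (exact permutation, adjusted p = 0.120), but 0.32 on the full chip, and Rheb and Eif4e2 had r = 0.70 (exact permutation, adjusted p = 0.190). These 4 pairs had an unadjusted p under 0.05, and only the pair of Mtor and Eif4e2 passed after adjustment. The repressor pair Eif4ebp1 and Eif4ebp2 had r = 0.69 (exact permutation, adjusted p = 0.308), which was 0.19 without the 2 mice farthest from the median of Eif4ebp1 and 0.86 with the actin measure removed. The 2 Mtor probesets themselves had r = -0.13 over mice, and r between probesets of one gene ran from -0.29 to 0.90, so the relation of Mtor and Eif4e2 is one of 2 probesets.

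**Figure D4:**
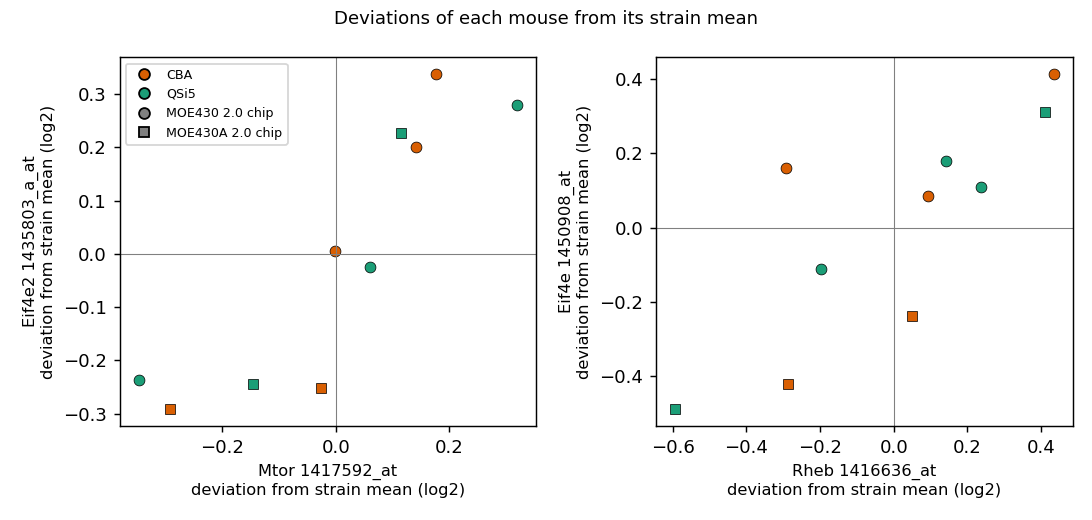
Deviation of each mouse from its strain mean (log2) for Mtor against Eif4e2 (left) and Rheb against Eif4e (right), 10 mice, coloured by strain and shaped by chip type. The points follow a rising line in both panels, with r = 0.88 on the left and 0.81 on the right.

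Beside all other genes, those whose deviations from the strain mean followed Mtor most closely over the 10 arrays were Dnajb11, an endoplasmic reticulum chaperone cofactor (r = 0.94), and Cops7a, a subunit of the COP9 signalosome (r = 0.92). For Eif4e they were Pno1, a factor of small ribosomal subunit assembly, and 0610012G03Rik, both at r = 0.98. For Eif4ebp1 they were Cdc42ep5, an effector of the GTPase CDC42 (r = 0.95), and Hectd3, a ubiquitin ligase (r = 0.92). These were picked as the highest of 7361 genes and are a description.

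The actin measure was then set against each of the 17 probesets within strains. Eif4e2 on 1421985_a_at had r = -0.91 (exact permutation p = 0.00229, adjusted over 17 probesets p = 0.0195; rho = -0.85, exact permutation adjusted p = 0.0791), and -0.79 without CBA 2 and CBA 3, the arrays farthest from the median of the measure. Eif4e on 1450908_at had r = -0.81 (exact permutation p = 0.00139, adjusted p = 0.0195; rho = -0.90, exact permutation adjusted p = 0.0732), and -0.63 without those arrays. Eif4ebp1 on 1417562_at had r = -0.91 (exact permutation p = 0.0208, adjusted p = 0.118; rho = -0.50), and -0.67 without them. These 3 of 17 probesets had an r of 0.8 or more in size, against 5.41% of all tested. For Eif4e2 on 1435803_a_at, which carried the strain difference, r was -0.47 (exact permutation p = 0.243), and 0.093 without those arrays. For Mtor on 1417592_at it was -0.26 (exact permutation p = 0.460). Whether the state of the RNA set these levels was not tested.

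**Figure D5:**
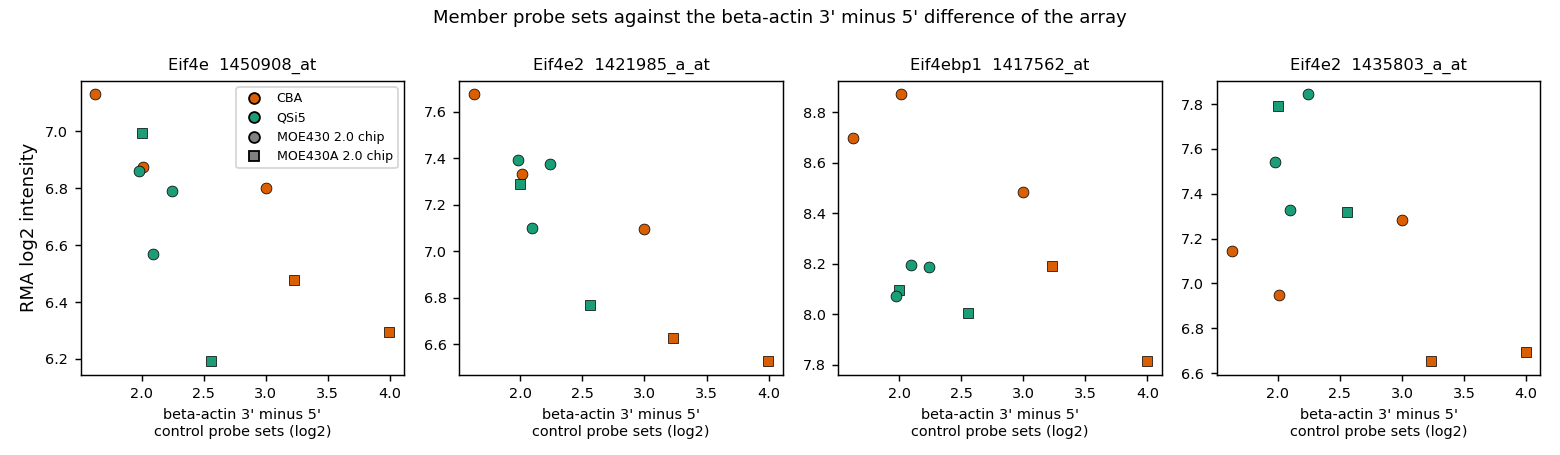
RMA log2 intensity (vertical axis) of 4 probesets in each of the 10 mice against the 3' minus 5' difference of the beta-actin control probesets of the array (log2, horizontal axis). Within strains, r was -0.81 for Eif4e 1450908_at, -0.91 for both Eif4e2 1421985_a_at and Eif4ebp1 1417562_at, and -0.47 for Eif4e2 1435803_a_at.

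The rest of the pathway was examined with 6 lists of 116 genes, of which 89 were tested, each gene on its brightest probeset. Of these 89, 0 were higher and 2 were lower in QSi5 at a limma BH-adjusted p under 0.05, and 87 did not pass, while 1.32% of all 7361 tested genes were higher and 1.39% lower (2.7% in all). At an unadjusted p under 0.01, 6 of 89 passed, against 6.33% of all. The median difference was 0.039 beside 0.0038 over all genes.

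Among genes upstream of mTORC1 1 of 23 was lower, Slc7a5, the light chain of the LAT1 transporter that brings leucine and other large neutral amino acids into the cell. It had 8.68 ± 0.40 in CBA and 7.78 ± 0.29 in QSi5 (SD, n = 5), a difference of -0.90 (SE 0.20, limma BH-adjusted p = 0.0297), and -0.77 and -1.09 on the full and the A chip. It was no longer called when any one of CBA 1, 3 and 5 and QSi5 2 to 5 was left out (7 of 10 mice), with differences of -1.03 to -0.76 and limma BH-adjusted p of 0.00994 to 0.0782 over all 10. The list had a median of 0.045. Among the S6 kinase branch and other mTORC1 targets 1 of 14 was lower, Grb10, an imprinted adaptor that damps insulin and IGF1 receptor signalling and is itself stabilised by mTORC1. It had 5.64 ± 0.37 in CBA and 4.22 ± 0.17 in QSi5 (SD, n = 5). The difference was -1.42 (SE 0.17, limma BH-adjusted p = 0.000429), or 2.68-fold lower in QSi5. It was -1.71 on the full chip and -0.99 on the A chip, and stayed called whichever of the 10 mice was left out. The QSi5 mean of Grb10 lay below the intensity minimum, so the gene was tested through its CBA level alone. Its fold value therefore rests on a QSi5 signal below that minimum. The other 13 genes of that list did not pass, and its median was 0.15, with 13 of the 14 differences positive.

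In the remaining lists no gene was called. Of 5 tested partners of the mTOR complexes the median was 0.22, and Tti1, an assembly factor of mTOR-like kinases, had 0.28 (SE 0.091, limma BH-adjusted p = 0.148). The means of Tti1 were 4.10 in CBA and 4.39 in QSi5. It thus lay close to the intensity minimum and passed it in QSi5 only. Of 15 partners in the cap-binding complex the median was 0.14, and Mknk2, a kinase that phosphorylates eIF4E, had 0.35 (SE 0.11, limma BH-adjusted p = 0.148). Of 13 genes of eIF2, eIF2B and the eIF2 kinases the median was -0.097. There Eif2ak3, which encodes the stress-sensing kinase PERK of the endoplasmic reticulum, had -0.50 (SE 0.15, limma BH-adjusted p = 0.133). Of 19 genes of eIF3 and other initiation factors the median was -0.082, and Eif3e, a subunit of eIF3, had -0.37 (SE 0.10, limma BH-adjusted p = 0.0916). Differences were positive for 4 of the 5 mTOR partners and 12 of the 15 cap-binding partners, and for 6 of 13 and 7 of 19 in the other 2 lists. These counts stand beside 3745 of 7361 genes, and nothing particular to a list is read from them.

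All measured markers of a cell type were summed on the unlogged scale in each gland and are given as log2 of the sum. Macrophage and myeloid markers (7 of 8 tested) ran from 9.03 to 11.57 in CBA and from 9.04 to 10.20 in QSi5. The brightest of them, Cd14, differed by -1.40 (SE 0.62, limma BH-adjusted p = 0.315). The median difference of the 7 tested genes was 0.087, with 5 positive and 2 negative. Adipocyte markers (5 of 8 tested) ran from 12.10 to 13.02 and from 12.54 to 12.82, myoepithelial markers (6 of 9) from 10.86 to 11.85 and from 10.53 to 11.83, and fibroblast markers (5 of 6) from 9.30 to 10.40 and from 8.95 to 10.52. The brightest adipocyte gene, Lpl, differed by 0.12, while Fabp4 had -0.73 (SE 0.23, limma BH-adjusted p = 0.132). In that list 2 differences were positive and 3 negative. Secretory luminal markers (12 of 12) held within 16.70 to 16.77 and 16.73 to 16.85, a sum that the brightest milk genes lead. Within the secretory list Xdh, the xanthine oxidoreductase of the milk fat globule, was higher in QSi5 by 0.73 (SE 0.098, limma BH-adjusted p = 0.00108) and Krt8, a luminal keratin, differed by -0.83 (SE 0.16, limma BH-adjusted p = 0.0161). Lymphocyte and plasma cell (2 of 10), endothelial (2 of 7) and skeletal muscle markers (1 of 6) were mostly below the intensity minimum. The strains overlapped for each of the 8 marker lists, and the part of cell make-up in the differences above was not tested.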

How the data were processed

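The authors extracted total RNA from 20 mg of gland and deposited log2 values that they made with RMA in the affy package. Per the labels, both chip types were normalized together on their 22690 common probesets. No versions are stated. Methods and labels differ on the chip (the A chip alone, or both) and on the gland (the right, or the fourth, inguinal one). The members and lists were chosen with earlier results of these data known. Of the probesets, 64 controls were set aside, 691 carried several symbols and 1555 none. Values were used as deposited and fitted with limma 3.58.1 in R 4.3.3 (two-sided, strain only, BH over 11412 probesets), and the fit was tested on simulated data. Each gene stood by its brightest tested probeset. Of 6 planned ratios 3 could be computed. Genes outside the lists were named by the highest within-strain r (2 for each of Mtor, Eif4e and Eif4ebp1), and genes of a list where called or, if none was, at an unadjusted p under 0.01. No column of another series was present. Precision was limited by how many arrays there were. Alternatives changed the intensity minimum, normalization, chip block, replicate block, trend, weights, probeset choice and the mice included. The actin term and its correlations, the 21 pairs of genes, the 1421985_a_at ratio and the minimum on unlogged means were added after seeing the data.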

Additional observations from a re-analysis of the deposited data

Results flagged for a closer look

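In 34 groups of 5 mice (17 probesets in each strain), 2 held a mouse whose gap to the next, divided by the whole range of the group, exceeded the critical value of 0.71, and chance gives about 1 in 20. QSi5 2 had 5.48 for Mtor on 1436267_a_at, where the next mouse had 5.10 and the lowest 4.97, a ratio of 0.741. CBA 1 had 5.71 for Eif4ebp2 on 1437733_at, where the next had 5.48 and the lowest 5.41, a ratio of 0.761.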

How the results depend on the processing

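Of the 214 values that the strain differences of the 17 probesets took under alternatives other than leaving out a mouse, 201 kept direction and side of the threshold, 5 became called and 8 reversed. When 1 mouse was left out, 156 of 170 kept both, 2 became called and 12 reversed. The number of probesets called rose from 0 to 1 with an intensity minimum of 50, a second quantile normalization, chip type as a block or array weights. Each time this was Eif4e2 1435803_a_at, at limma BH-adjusted p of 0.0457, 0.0375, 0.0388 and 0.0368, in a range of 0.0368 to 0.357 over all alternatives. In the same order these settings called 4.78%, 3.24%, 3.62% and 4.07% of all tested probesets, against 2.94% in the main fit. With the actin term the 1 called was Eif4ebp1 1417562_at, against 2.28% of all. Leaving out a mouse gave 0 to 1 (Eif4ebp1 1434976_x_at without CBA 3 and Eif4e2 1435803_a_at without CBA 5), against 1.89% to 3.63% of all. At an unadjusted p under 0.01 the count was 1 in place of 2 with a second quantile normalization, without _x_at and _s_at probesets, with chip type or replicate as a block, with an intensity trend and on the A chip alone, and 1 to 3 when a mouse was left out.

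Of the list genes 1 in place of 2 was called with a minimum of 50, on the full chip alone and with the actin term, 0 on the A chip alone, and 1 to 3 without a mouse. With a minimum of 50 Slc7a5 was the 1 called, otherwise Grb10. At that minimum Grb10 was not tested, as its mean lay below the minimum in both strains. The ratio of Eif4e2 to Eif4e that passed gave 0 ratios passing with chip type as a block, on either chip alone, with the mean of all probesets, with 1421985_a_at and with the replicate block, and 1 to 2 passed without a mouse. On either chip alone and under the replicate block no permutation p could pass. With chip type as a block, the exact permutation adjusted p of 0.05 was the smallest a ratio could reach unless another ratio also had a small p. Of the probeset pairs 0 to 2 passed without a mouse, the 2 being of Eif4e2 1435803_a_at without QSi5 4. None of the 17 member probesets was called by chip type.

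Same-numbered mice correlated at -0.25, 0.29, -0.37, 0.058 and 0.017 in their deviations, for replicates 1 to 5. The mice of replicates 1 and 3, with the negative values, were on different chip types, and those of replicates 2, 4 and 5 on the same. Whether the numbers pair the mice can therefore not be told from these values. The replicate block called 0 member probesets and 260 of all (2.28%), and gave Eif4e2 over Eif4e an exact permutation adjusted p of 0.0938.

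These small differences changed sign, and the cause was not tested. On the full chip Eif4e2 1421985_a_at gave -0.078, Eif4e2 1421986_at 0.097, the Eif4ebp1 pair of probesets 0.051 and the Eif4g2 pair with 1415863_at 0.040. On the A chip Eif4e 1450908_at gave 0.21, Eif4ebp1 1417562_at 0.048, Eif4ebp2 1436158_at 0.0071 and Eif4ebp2 over Eif4e -0.20. Eif4ebp2 1436158_at gave 0.036 after a second quantile normalization and 0.028 with the actin term, and Eif4e2 1421985_a_at -0.17 with that term. Without 1 mouse the ranges were -0.14 to 0.088 for Eif4e 1450908_at, -0.15 to 0.021 for Eif4e2 1421986_at, -0.15 to 0.033 for Eif4e2 1435804_at, -0.077 to 0.065 for Eif4ebp2 1436158_at, -0.0038 to 0.13 for Eif4g2 1428362_at and -0.15 to 0.15 for Eif4ebp2 over Eif4e. For pairs of probesets they were -0.049 to 0.17 for Mtor, -0.035 to 0.31 for Eif4e, -0.19 to 0.0040 for Eif4ebp1 and -0.18 to 0.075 for Eif4g2.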
